A study of Homo sapiens with 12 samples.

Results

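The NuRD (nucleosome remodeling and deacetylase) complex is built from subunits that mostly exist as paralogues, that is, as closely related proteins made from separate genes. Its 10 genes of this kind were followed here: the ATPases CHD3 and CHD4, the scaffold proteins MTA1, MTA2 and MTA3, the bridging proteins GATAD2A and GATAD2B, the methyl-CpG-binding domain proteins MBD2 and MBD3, and the small subunit CDK2AP1. They are a list of names, matched to the Ensembl identifiers of the count files by gene symbol. The rule uses no measured value, although the list was drawn up with earlier results of these data known. All 10 passed the filter on low values and belonged to the 12853 coding genes tested, out of 60660 identifiers in the files. The data came from bulk RNA-seq of HEK293T, a transformed human embryonic kidney cell line labelled as wild type, after transfection of a control siRNA (siCTL) or an siRNA against CARM1 (siCARM1), CHD4 (siCHD4), HDAC2 (siHDAC2), GATAD2A (siGATAD2A) or KDM1A (siKDM1A). CARM1 is an arginine methyltransferase that the study linked to NuRD, HDAC2 is a histone deacetylase of the complex and KDM1A is a histone demethylase found with it. Each of the 6 groups held 2 libraries, and the time after transfection was not given in the labels. The study's methods list 1 siRNA for each target except CARM1, so a sequence-specific effect of an siRNA and an effect of losing its target cannot be told apart, and p-values measure the spread between libraries that the labels do not describe as separate cultures. In bulk RNA, a change in some of the cells and a smaller change in every cell cannot be told apart.

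As background, NuRD joins a motor and an eraser. CHD3 or CHD4 slides nucleosomes with the energy of ATP, and HDAC1 or HDAC2, held by a dimer of MTA proteins together with the histone-binding proteins RBBP4 and RBBP7, removes acetyl groups from histones. GATAD2A or GATAD2B connects the CHD subunit to the MBD subunit, and only MBD2 of the pair MBD2 and MBD3 binds methylated CpG with high affinity. Since a given complex carries 1 member of most of these sets, the question was whether the transcript of a paralogue rises when the other is depleted.

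The coding sequences show how far reads of paralogues can be told apart, which the comparison rests on. For the CHD, MTA and MBD families the longest run of identical bases shared by the coding sequences of the canonical transcripts (GENCODE 44, mapped to GRCh37) was found. It is printed in capitals for CHD3 with CHD4, with 15 bases on either side in lower case.
CHD3: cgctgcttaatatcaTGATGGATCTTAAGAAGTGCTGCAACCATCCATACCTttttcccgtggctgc
CHD4: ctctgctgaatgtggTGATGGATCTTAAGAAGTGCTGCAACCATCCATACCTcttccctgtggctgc

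The CHD3 and CHD4 run of 37 bases spans positions 3065 to 3101 of the CHD3 coding sequence and 3035 to 3071 of that of CHD4, and it was the longest in any of these families. Among the MTA genes the longest runs were 17 bases for MTA1 with MTA2, 20 bases for MTA1 with MTA3 and 23 bases for MTA2 with MTA3, the last at the start codon. MBD2 and MBD3 shared at most 13 bases. Aligned over the whole protein, CHD3 and CHD4 were identical at 71.1% of the residues of the shorter protein, MBD2 and MBD3 at 68.0%, and the MTA proteins at 63.5% to 70.9%. Stretches of identical bases were therefore short in these pairs, although the protein sequences are alike. GATAD2A and GATAD2B were not compared in this way, so how far their reads can be told apart was not examined.

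CHD4 raised a different problem of counting. On GRCh37 it lies on the minus strand at chr12:6679248-6723690, and a readthrough gene, ENSG00000285238, is annotated over it on the same strand. Of the 6491 bases in the 40 exons of the canonical CHD4 transcript, 5846 (90.1%) are also exonic in the readthrough gene, and a read there is assigned to neither gene. The 612 bases of the last exon are shared by no other gene. The readthrough gene was listed at 0 in all 12 libraries, so adding it to CHD4 changed nothing. The CHD4 count could thus come only from the last exon, small parts of 2 early exons and exons of other isoforms, and ranged from 604 to 1040 per library. Its level per length is therefore not known. In FPKM (fragments on a gene relative to its exonic length and to the library's total), siCTL gave 3.02 over all 12713 exonic bases of the gene and 5.69 over the 6749 that are not shared, called countable bases here. Only 9.56% of the countable bases (645) lie in the canonical transcript, and if all CHD4 counts fell on these its level would be 59.5 FPKM, a reading added after the data were seen. CHD4 is therefore left out of the order of levels below, whereas its CPM can be compared between groups. MTA1 shares 3.76% of its exonic bases with TEX22 and MBD3 shares 9.7% with ENSG00000267059, while the other members share none.

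The libraries held between 19308315 and 28648657 counts on genes (median 24292682). The siCTL libraries had the lowest shares of fragments on no gene, 17.16% and 17.98%, against 18.48% to 21.16% in the knockdowns. Their shares of counts on unmatched identifiers were the highest, 2.61% and 2.58%, against 1.75% to 2.35%. Fragments mapped to several places made up 10.64% and 7.54% in siCTL (median of all libraries 6.48%, siCARM1 replicate 1 9.19%). Whether this bears on the differences from siCTL was not tested. A biological coefficient of variation of 3.47% was estimated between replicates, and no member had fewer than 309 counts in any library. Of the fixed HEK293T markers, the keratins KRT8 and KRT18, VIM, NEFL and CDH2 were well expressed, at 7.18 FPKM or more in every library, whereas PAX2, NEFM and INA had at most 102 counts in any library. Of the breast cancer list, ESR1 and TFF1 did not exceed 0.405 FPKM, but KRT19 was at 33.0 to 44.4 and GATA3 at 3.06 to 5.18 FPKM. Of the fibroblast list, DCN had at most 2 counts, but COL1A1 was at 8.42 to 14.0 and LUM at 0.822 to 2.12 FPKM. The markers of blood (PTPRC and CD3E), endothelium (CDH5) and liver (ALB and APOA1) had at most 13 counts in any library, and PECAM1 of the endothelial list had no match in the annotation and is not analysed here. Of these HEK293T markers 6 were tested, and calls are defined below. In siCARM1 (29.3% of all tested genes called), siCHD4 (48.9%) and siKDM1A (25.8%) 4 were called higher, and in siHDAC2 (19.7%) 3. In siGATAD2A (33.9%) 2 were called lower, among them VIM at -0.64 on the log2 scale. The 4 in siCHD4 include INA, which had at most 102 counts in any library. INA passed the filter on low values only through siCHD4, so this call is not independent of that filter. The part of the marker changes in the results below was not tested.

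In the control cells the members other than CHD4 covered a wide range of levels. MTA2 was the most abundant, with 111 and 105 FPKM in the 2 siCTL libraries. MBD3 followed at 31.5 ± 1.43 FPKM (SD, n = 2), then GATAD2A at 22.8 ± 1.54, MTA1 at 19.1 ± 0.826, CHD3 at 13.5 ± 0.690, CDK2AP1 at 11.8 ± 0.0689, GATAD2B at 10.9 ± 0.285 and MTA3 at 5.71 ± 0.272. MBD2 was the lowest, at 2.97 ± 0.217 FPKM. No neighbours in this order overlapped between their libraries. That spread does not cover the choice of length, which for every gene was that of its merged exons. The MTA, MBD and GATAD2 families each had a major transcript. MTA2 made up 81.3% ± 0.888 of the summed FPKM of the MTA genes, MBD3 91.4% ± 0.931 of that of the MBD pair, and GATAD2A 67.5% ± 0.909 of that of the GATAD2 pair.

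**Figure D1:**
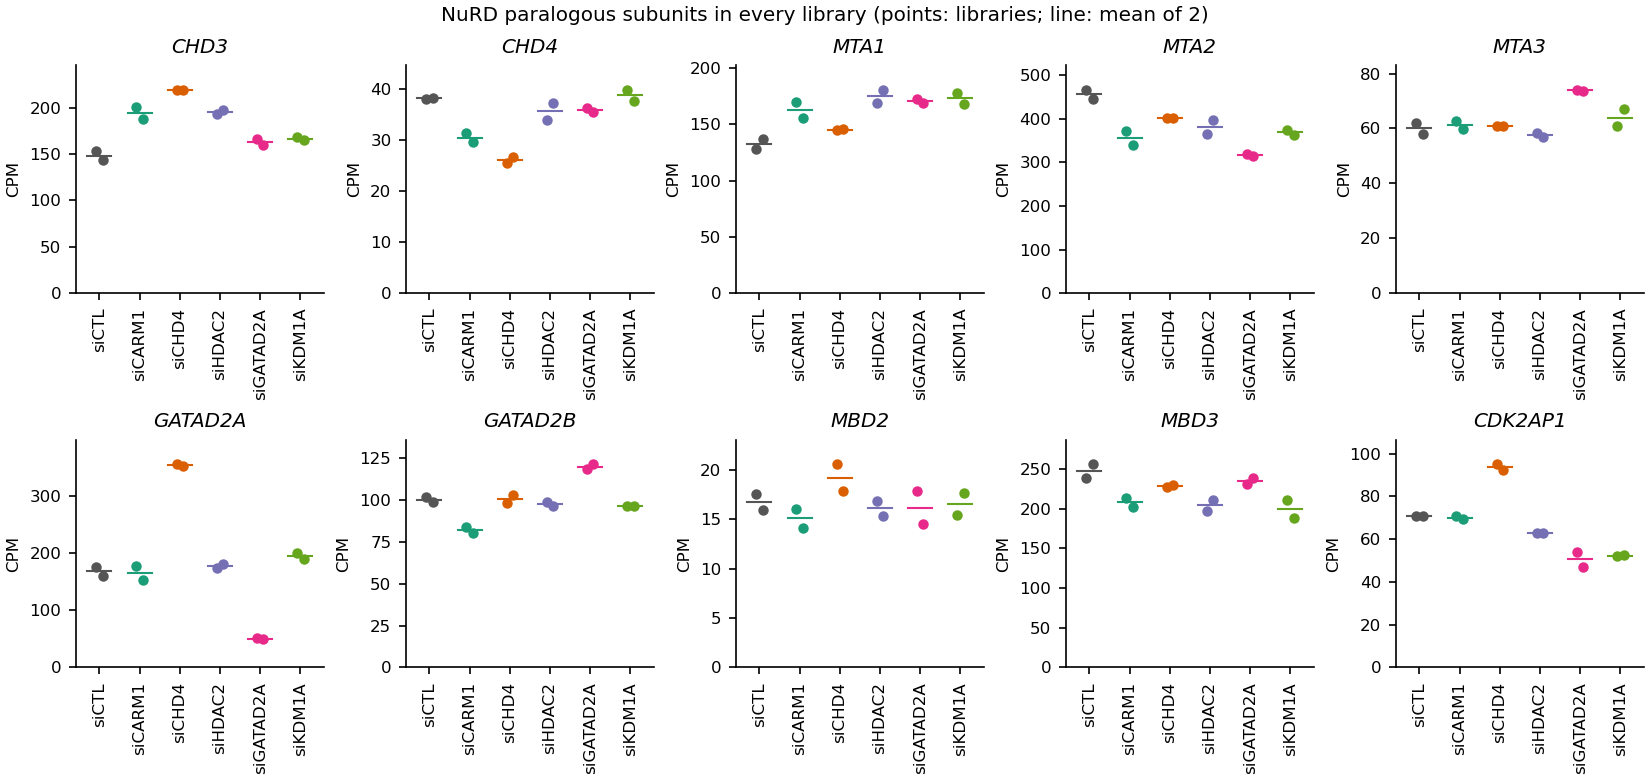
CPM (counts relative to the TMM-scaled total of the library) of the 10 members in each of the 12 libraries, by siRNA group, with each vertical axis starting at 0. Points are libraries and lines are means of 2. GATAD2A ran from 48.9 CPM in siGATAD2A to 355 CPM in siCHD4, whereas MBD2 stayed between 14.2 and 20.6 CPM.

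To ask which members changed, every knockdown was set against siCTL in 1 edgeR quasi-likelihood fit over all tested genes. A gene was called, and is said below to have risen or fallen, where its adjusted p (Benjamini-Hochberg) did not exceed 0.05 and its fold change was at least 1.2, which is 0.263 on the log2 scale. The smallest p of an exact two-sided permutation test of 2 against 2 libraries is 0.333, so single values could not be tested in that way. Of the 10 members, 5 were called in siCARM1, where 29.3% of all tested genes were called. In siCHD4 4 of 10 were called against 48.9% of all genes, in siHDAC2 3 against 19.7%, in siGATAD2A 5 against 33.9%, and in siKDM1A 4 against 25.8%. These counts include the targeted gene in siCHD4 and siGATAD2A. Of the 50 member values, 21 were called, 10 of them higher and 11 lower. The median log2 fold change over the members lay between -0.08 and 0.08 in the 5 comparisons, and that over all tested genes between -0.01 and 0. The 5 comparisons share the 2 siCTL libraries, so an unusual value in these would appear in all 5. For this reason each knockdown was also compared with the mean of the other 4 knockdowns, which uses no siCTL library. For CHD4 and GATAD2A that mean can include the knockdown in which the gene itself was the target.

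**Figure D2:**
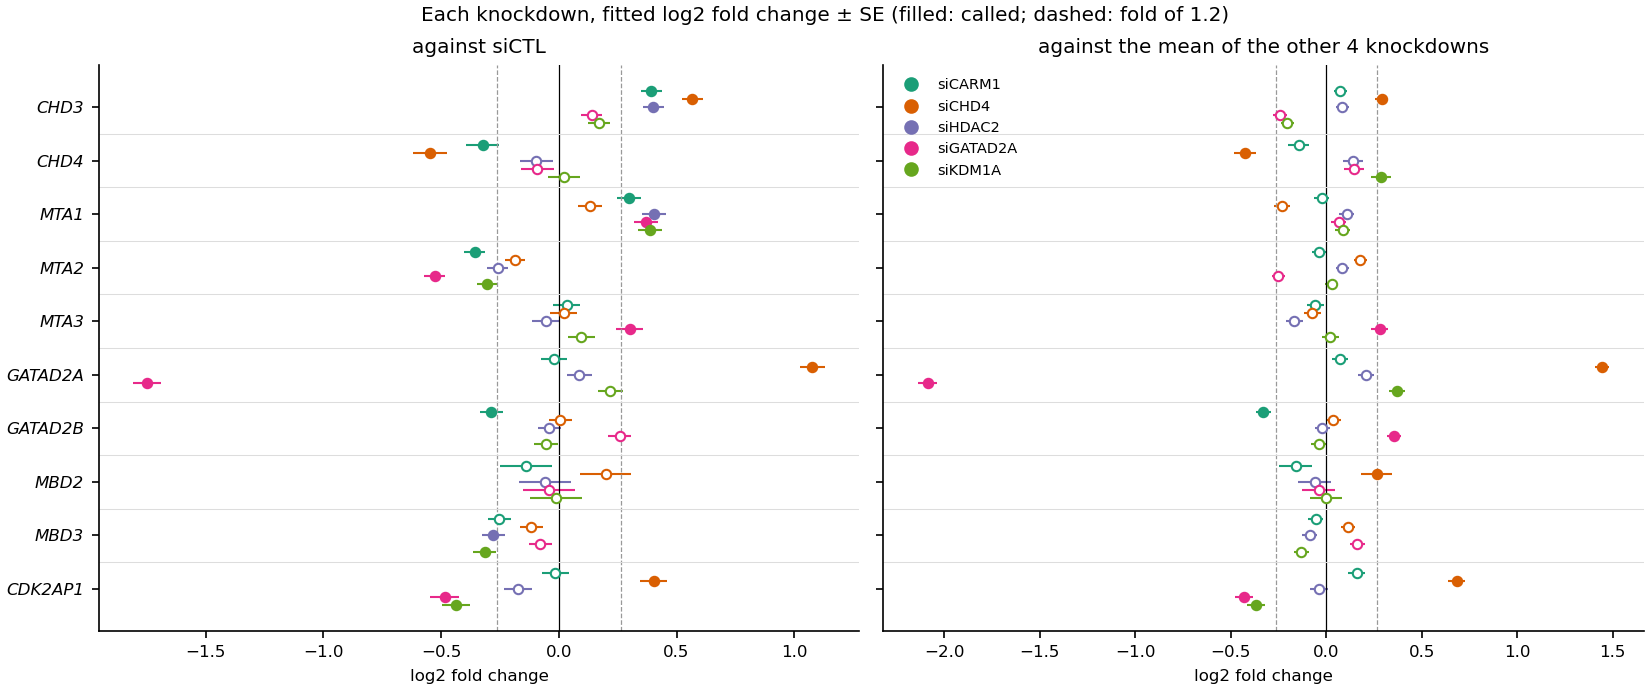
Fitted log2 fold change with its SE for each member in each knockdown, against siCTL on the left and against the mean of the other 4 knockdowns on the right (the horizontal scales differ). Filled points were called and dashed lines mark a fold of 1.2. The points of MTA1 lie to the right of 0 and those of MTA2 to the left in all 5 comparisons with siCTL, and CDK2AP1 and GATAD2A have called points on both sides.

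The targeted transcripts were lower in their own knockdowns. CARM1 fell from 122 and 121 CPM in siCTL to 24.2 and 22.5 in siCARM1, HDAC2 from 196 and 204 to 39.2 and 39.4 in siHDAC2, and KDM1A from 173 and 166 to 27.8 and 28.5 in siKDM1A. GATAD2A and CHD4, which are members, are described with their families. The log2 fold changes were -2.38 for CARM1, -2.35 for HDAC2, -2.59 for KDM1A and -1.75 for GATAD2A, but -0.55 for CHD4, the target with the smallest measured loss.

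CHD4 was measured at 38.0 and 38.2 CPM in siCTL and at 25.5 and 26.6 CPM in siCHD4. Its fold change was -0.55 ± 0.07 (log2, SE; adjusted p = 7.79e-08), a fold of 0.684. Counted without regard to strand, the CHD4 counts were 704 and 843 in siCTL against 526 and 551 in siCHD4, and the log2 fold change was -0.74. CHD4 also fell in siCARM1, to 31.3 and 29.5 CPM (-0.32 ± 0.07, adjusted p = 0.000344). In siHDAC2 and siGATAD2A its libraries were at 33.9 to 37.2 CPM, below both siCTL libraries but not called, and in siKDM1A they were at 39.8 and 37.6 CPM, on either side of siCTL. Because most of the canonical transcript is not counted, how much of the whole CHD4 message was lost cannot be read from these values.

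CHD3, the other ATPase, was higher than in siCTL in all 5 knockdowns, with libraries that did not overlap those of siCTL. It stood at 153 and 143 CPM in siCTL and at 219 in both siCHD4 libraries. It rose by 0.57 ± 0.05 in siCHD4 (adjusted p = 2.28e-12), by 0.40 ± 0.05 in siHDAC2 (adjusted p = 3.55e-08) and by 0.39 ± 0.05 in siCARM1 (adjusted p = 2.34e-08). The values in siGATAD2A (166 and 160 CPM, 0.14 ± 0.05) and siKDM1A (169 and 165 CPM, 0.17 ± 0.05) passed the adjusted p but not the fold minimum. CHD3 was thus not raised in siCHD4 alone. Against the mean of the other 4 knockdowns it was still higher in siCHD4, by 0.29 ± 0.03 (adjusted p = 8.81e-09). Pair by pair, siCHD4 exceeded siGATAD2A by 0.43 ± 0.04, siKDM1A by 0.40 ± 0.04, siCARM1 by 0.17 ± 0.04 and siHDAC2 by 0.16 ± 0.04 (log2 ± SE, not tested).

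Whether the gain of CHD3 made up for the loss of CHD4 could not be determined, since the answer turned with the length taken for CHD4. CHD3 gained 5.94 FPKM in siCHD4. CHD4 lost 1.01 FPKM with all exonic bases, 1.91 over countable bases and 20.0 over the 645 unshared bases of the canonical transcript. The sum of both stood at 130%, 121% and 80.8% of siCTL in turn, and the share of CHD4 in siCTL was 18.2%, 29.6% and 81.5%.

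GATAD2A showed the largest changes of any member, in opposite directions. In siCTL it was at 175 and 160 CPM. In siGATAD2A it fell to 50.7 and 48.9 CPM (-1.75 ± 0.06, adjusted p = 9.38e-21), and in siCHD4 it rose to 355 and 351 CPM (1.08 ± 0.05, adjusted p = 1.2e-17), a fold of 2.11. In siCARM1 (177 and 153 CPM) and siHDAC2 (174 and 181 CPM) the libraries overlapped those of siCTL. In siKDM1A it reached 200 and 190 CPM, above both siCTL libraries and past the adjusted p, but at 0.22 ± 0.05 under the fold minimum. Without siCTL replicate 1 this value was 0.28 and was called. Against the other 4 knockdowns GATAD2A was higher in siCHD4 by 1.44 ± 0.04 (adjusted p = 1.03e-24). That mean holds siGATAD2A, where GATAD2A was the target, which widens the difference. Pair by pair, siCHD4 exceeded siCARM1 by 1.10 ± 0.05, siHDAC2 by 0.99 ± 0.05 and siKDM1A by 0.86 ± 0.05 (log2 ± SE, not tested).

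GATAD2B, its paralogue, was at 102 and 98.7 CPM in siCTL and at 118 and 122 CPM in siGATAD2A. The groups did not overlap, and the difference of 0.26 ± 0.05 had an adjusted p of 4.64e-05, but it corresponded to a fold of 1.197 and so was just under the minimum. It was called without siCTL replicate 1 (0.28) or without siGATAD2A replicate 1 (0.28). Against the mean of the other 4 knockdowns GATAD2B was higher in siGATAD2A by 0.35 ± 0.04 (adjusted p = 2.52e-09). That mean holds siCARM1, where GATAD2B fell to 83.9 and 80.4 CPM (-0.29 ± 0.05 against siCTL, adjusted p = 2.1e-05, not called at -0.26 without siCARM1 replicate 2). Set against each other knockdown in turn, siGATAD2A was higher by 0.55 than siCARM1, 0.31 than siKDM1A, 0.30 than siHDAC2 and 0.25 than siCHD4, each with an SE of 0.05. In siCHD4, where GATAD2A was higher, GATAD2B stood at 98.1 and 103 CPM and overlapped siCTL, as it did in siHDAC2.

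The gain of GATAD2B was small beside the loss of GATAD2A. In siGATAD2A, GATAD2A lost 16.0 FPKM and GATAD2B gained 2.10, which is 13.1% of the loss. The pair summed to 33.7 ± 1.82 FPKM in siCTL and 19.8 ± 0.0841 in siGATAD2A (SD, n = 2), or 58.7% of the control. GATAD2B nevertheless became the major transcript there, with 65.9% ± 0.983 of the sum against 32.5% ± 0.909 in siCTL. In siCHD4 the sum reached 57.3 ± 0.118 FPKM, and 81.4% ± 0.671 of it was GATAD2A.

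**Figure D3:**
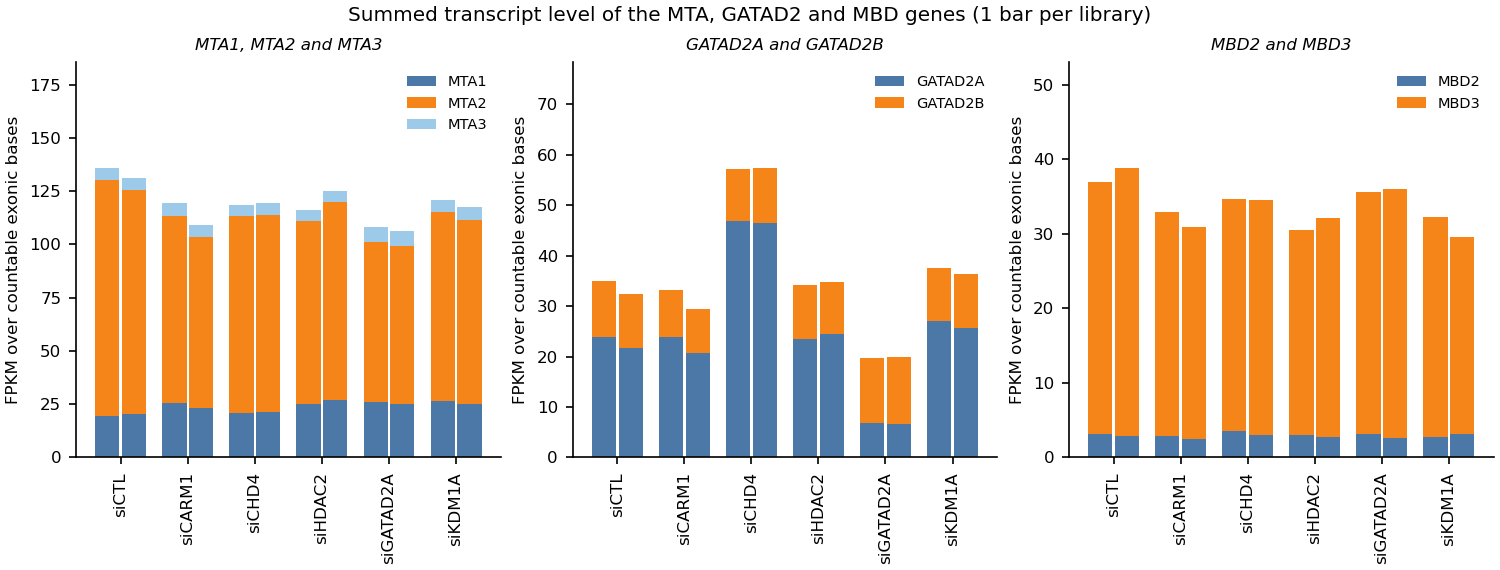
FPKM over countable exonic bases of the MTA, GATAD2 and MBD genes, stacked by gene, with 1 bar per library and 2 per siRNA group, each vertical axis starting at 0. The GATAD2 pair drops to 19.8 FPKM in siGATAD2A and reaches 57.3 FPKM in siCHD4, while the MTA sum is lower in every knockdown than in siCTL.

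The MTA genes shifted against each other. MTA1 was above both siCTL libraries, and MTA2 below both, in all 5 knockdowns. MTA1 went from 128 and 137 CPM in siCTL to 169 and 181 in siHDAC2 (0.40 ± 0.05, adjusted p = 2.05e-07), 178 and 168 in siKDM1A (0.39 ± 0.05, adjusted p = 2.31e-07) and 173 and 169 in siGATAD2A (0.37 ± 0.05, adjusted p = 2.87e-07). It also rose in siCARM1, to 170 and 155 CPM (0.30 ± 0.05, adjusted p = 1.23e-05). That call was lost without siCTL replicate 1 (0.25) or siCARM1 replicate 1 (0.23). In siCHD4 it was at 145 CPM in both libraries (0.13 ± 0.05, not called).

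MTA2 fell most in siGATAD2A, from 467 and 446 CPM in siCTL to 320 and 314 (-0.53 ± 0.04, adjusted p = 1.35e-11). It fell to 372 and 340 CPM in siCARM1 (-0.36 ± 0.04, adjusted p = 6.13e-08) and to 375 and 364 CPM in siKDM1A (-0.30 ± 0.04, adjusted p = 1.28e-06). In siHDAC2 (365 and 397 CPM, -0.26 ± 0.04) and siCHD4 (401 and 402 CPM, -0.19 ± 0.04) the adjusted p passed but the fold did not. The siHDAC2 value sat at the limit, and was called at -0.29 without siCTL replicate 2 and at -0.32 without siHDAC2 replicate 2. With all 12 libraries, neither MTA1 nor MTA2 was called in a comparison with the other 4 knockdowns. The values nearest to a call there were MTA2 in siGATAD2A (-0.25 ± 0.04) and MTA1 in siCHD4 (-0.23 ± 0.04), both past the adjusted p but under the fold minimum. The MTA2 value was called without siGATAD2A replicate 1 (-0.27), siCARM1 replicate 2 (-0.27) or siHDAC2 replicate 1 (-0.26). The MTA1 and MTA2 calls with all libraries were thus made against siCTL, whose 2 libraries all 5 comparisons share.

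MTA3, the least abundant of the 3, overlapped siCTL (61.8 and 58.2 CPM) in 4 knockdowns. In siGATAD2A it rose to 74.1 and 73.6 CPM, by 0.30 ± 0.06 (adjusted p = 5.57e-05), which fell to 0.26 and was not called without siCTL replicate 2. Against the other 4 knockdowns it was higher by 0.28 ± 0.04 (adjusted p = 3.48e-06), a call lost at 0.26 without siKDM1A replicate 1. The summed FPKM of the MTA genes went from 135 and 130 in siCTL to 107 and 105 in siGATAD2A, and the share of MTA2 from 81.3% ± 0.888 to 70.2% ± 0.0141. MTA1 took 23.2% ± 0.0396 of the sum there, against 14.4% ± 0.984 in siCTL. The rises of MTA1 and MTA3 in siGATAD2A did not make up for the fall of MTA2.

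The sequences before the start sites of genes that moved differently are shown next. The windows hold the 250 bases upstream of the RefSeq start, in GRCh38.p14 coordinates and on the strand of the gene. Capitals mark GGGCGG or its reverse complement CCGCCC, the core of the GC box. All 10 members matched, with 15 windows in all since some have several starts. For MTA2 and GATAD2A the window farthest upstream is printed.
MTA1 (plus strand, chr14:105419577-105419826): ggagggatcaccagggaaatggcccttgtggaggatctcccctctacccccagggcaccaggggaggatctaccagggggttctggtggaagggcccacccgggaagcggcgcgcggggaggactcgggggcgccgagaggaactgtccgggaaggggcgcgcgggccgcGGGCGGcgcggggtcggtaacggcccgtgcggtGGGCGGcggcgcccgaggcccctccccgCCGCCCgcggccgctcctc
MTA2 (minus strand, chr11:62601866-62602115): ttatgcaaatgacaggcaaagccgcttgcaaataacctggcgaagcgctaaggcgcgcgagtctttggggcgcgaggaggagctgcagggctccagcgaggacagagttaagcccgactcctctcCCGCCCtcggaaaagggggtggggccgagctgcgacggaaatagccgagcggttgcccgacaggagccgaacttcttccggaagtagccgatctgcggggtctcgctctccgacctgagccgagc
GATAD2A (plus strand, chr19:19385593-19385842): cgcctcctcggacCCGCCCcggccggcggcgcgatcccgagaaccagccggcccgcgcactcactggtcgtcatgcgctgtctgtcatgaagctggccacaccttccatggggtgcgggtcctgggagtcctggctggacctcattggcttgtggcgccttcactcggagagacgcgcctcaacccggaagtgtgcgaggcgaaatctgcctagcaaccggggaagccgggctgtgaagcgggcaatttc
GATAD2B (minus strand, chr1:153922973-153923222): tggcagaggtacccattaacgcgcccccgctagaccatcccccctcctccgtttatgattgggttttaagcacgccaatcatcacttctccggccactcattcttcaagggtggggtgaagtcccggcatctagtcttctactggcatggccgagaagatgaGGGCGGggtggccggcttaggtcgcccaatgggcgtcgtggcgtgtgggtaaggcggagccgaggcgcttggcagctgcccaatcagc

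The MTA1 window held 3 GC boxes and 30 CpG dinucleotides. The printed MTA2 window held 1 and 25, the GATAD2A window 1 and 25, and the GATAD2B window 1 and 17. The second windows, not printed, held 1 and 33 for MTA2 and 5 and 32 for GATAD2A, so the count depends on the start chosen. Over all members 12 of 15 windows held at least 1 GC box, compared with 42.6% of the 35116 windows searched, whose median CpG count was 11. The windows searched were not limited to tested genes or to a like CpG count. Some members also gave several of the 15, so no trait of the members can be read from this. A match is a description of these letters and not evidence of binding.

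Of the MBD pair, MBD3 was below both siCTL libraries (239 and 256 CPM) in all 5 knockdowns and fell in 2. It went to 210 and 188 CPM in siKDM1A (-0.31 ± 0.05, adjusted p = 5.05e-06) and to 197 and 211 CPM in siHDAC2 (-0.28 ± 0.05, adjusted p = 4.43e-05). Both calls depended on single libraries. That of siKDM1A was lost without siCTL replicate 2 (-0.26) or siKDM1A replicate 2 (-0.24), and that of siHDAC2 without siCTL replicate 2 (-0.23) or siHDAC2 replicate 1 (-0.23). In siCARM1 the values of 213 and 202 CPM gave -0.25 ± 0.05, under the fold minimum, and this was called without siCTL replicate 1 (-0.30) or siCARM1 replicate 1 (-0.30). MBD3 was not called against the other 4 knockdowns in any group.

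MBD2 was the member with the fewest counts, 309 to 488 per library, and so the one measured with the largest SE, 0.11. It stood at 17.6 and 15.9 CPM in siCTL and overlapped these values in 4 knockdowns. In siCHD4 (20.6 and 17.8 CPM) it was above siCTL, at 0.20 ± 0.11, and was not called (adjusted p = 0.105), except without siCHD4 replicate 2 (0.30). Against the other 4 knockdowns the same libraries were higher by 0.26 ± 0.08 (adjusted p = 0.00592), at the edge of the fold minimum. This call did not survive leaving out siCHD4 replicate 1 (0.16), any of 4 libraries of the other knockdowns (0.23 to 0.25), the replicate block (0.26), counts without regard to strand (0.26) or the lack of an FPKM filter (0.26).

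CDK2AP1, a small protein named for its association with the cell cycle kinase CDK2, moved in opposite directions. From 70.9 and 70.8 CPM in siCTL it rose to 95.1 and 92.3 in siCHD4 (0.40 ± 0.06, adjusted p = 2.56e-07). It fell to 54.1 and 47.0 CPM in siGATAD2A (-0.49 ± 0.06, adjusted p = 4.25e-08) and to 52.1 and 52.5 CPM in siKDM1A (-0.44 ± 0.06, adjusted p = 5.06e-07). In siHDAC2 it was at 63.0 and 62.6 CPM, below siCTL but under the fold minimum (-0.17 ± 0.06), and in siCARM1 it overlapped siCTL. Against the other 4 knockdowns it was higher in siCHD4 by 0.68 ± 0.04 (adjusted p = 5.72e-15), and lower in siGATAD2A (-0.43 ± 0.05, adjusted p = 5.97e-09) and siKDM1A (-0.37 ± 0.05, adjusted p = 1.78e-07).

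Taken against the other 4 knockdowns, 5 members were called in siCHD4, where 45.4% of all tested genes were called. These were CHD4, lower, and CHD3, GATAD2A, MBD2 and CDK2AP1, higher. In siGATAD2A 4 were called against 26.9% of all genes (GATAD2A and CDK2AP1 lower, GATAD2B and MTA3 higher), and in siKDM1A 3 against 19.8% (CDK2AP1 lower, GATAD2A and CHD4 higher). The CHD4 value in siKDM1A was 0.29 ± 0.05 (adjusted p = 6.52e-05), and was not called without siKDM1A replicate 1 (0.25). The mean set against siKDM1A holds siCHD4 and siGATAD2A, where CHD4 and GATAD2A were the targets. Against siCTL, with all libraries, neither was called in siKDM1A (CHD4 0.02 ± 0.07, GATAD2A 0.22 ± 0.05). For CHD4, siKDM1A exceeded siCARM1 by 0.35 ± 0.07, siHDAC2 by 0.12 ± 0.07 and siGATAD2A by 0.11 ± 0.07 (not tested). For GATAD2A it exceeded siCARM1 by 0.24 ± 0.05 and siHDAC2 by 0.13 ± 0.05, but siCHD4 exceeded siKDM1A by 0.86 ± 0.05 (not tested). In siCARM1 only GATAD2B was called, lower by -0.33 ± 0.04 (adjusted p = 5.15e-08), against 22% of all genes. No member was called by edgeR's quasi-likelihood test or by DESeq2 in siHDAC2, where 19.4% of genes were, although 7 had an unadjusted p under 0.05 and 5 an adjusted p of 0.05 or less. These 5 comparisons share libraries with each other.

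Of the subunits outside the paralogous set that were followed (HDAC1, HDAC2, RBBP4, RBBP7 and KDM1A), HDAC1 rose in all 5 knockdowns. It stood at 202 and 203 CPM in siCTL. When its paralogue HDAC2 was targeted it was at 300 and 279 CPM (0.51 ± 0.04, adjusted p = 2.57e-11). The siGATAD2A libraries lay between these, at 287 in both (0.50 ± 0.04). In siCARM1 HDAC1 was at 266 and 270, in siKDM1A at 267 and 263, and in siCHD4 at 251 and 248 CPM. Against the other 4 knockdowns HDAC1 was not called in siHDAC2. RBBP7 fell in siGATAD2A (-0.59 ± 0.04, adjusted p = 1.32e-12), and RBBP4 was called in no knockdown.

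Relatives of the members that are not standard NuRD subunits formed a list of 12 genes (other CHD and MBD proteins and CDK2AP2), all of which were tested. In siCHD4 4 of them rose and 1 fell, beside 48.9% of all tested genes called. CHD5, an ATPase of the same subfamily known mainly from neurons, rose by 2.04 ± 0.23 (adjusted p = 3.51e-09), from 0.126 and 0.167 FPKM to 0.622 and 0.573, so it remained far below CHD3. CHD5 passed the filter on low values (a group mean above 0.5 FPKM) only through siCHD4. Its call there is therefore not independent of that filter. CHD7 rose by 0.68, CHD1 by 0.51 and CHD8 by 0.31, and MBD6 fell by 0.74 on the log2 scale. In siCARM1 4 rose and 1 fell (29.3% of all genes called), in siGATAD2A 3 rose and 1 fell (33.9%), in siHDAC2 2 rose (19.7%), and in siKDM1A 1 rose and 1 fell (25.8%). CHD5 was among those that rose in siCARM1 (0.94 ± 0.26, adjusted p = 0.00332). It was not called in siHDAC2, siGATAD2A or siKDM1A. CHD7 was called higher in all 5 knockdowns, at 0.31 to 0.68. CDK2AP2, the paralogue of CDK2AP1, fell by 0.46 in siCARM1, by 0.44 in siGATAD2A and by 0.37 in siKDM1A.

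Among 21 tested genes of a list of 22 zinc-finger and other proteins that recruit or bind NuRD, 8 rose in siCARM1 (29.3% of all genes called), 9 rose and 3 fell in siCHD4 (48.9%), 8 rose in siHDAC2 (19.7%), 7 rose in siGATAD2A (33.9%), and 5 rose and 1 fell in siKDM1A (25.8%). The list's median log2 fold change ran from 0.06 in siKDM1A to 0.21 in siCARM1. SALL4, a stem cell factor that binds NuRD, was called higher in all 5. Of the 5 ChAHP genes (ADNP, ADNP2, CBX1, CBX3 and CBX5), which encode or relate to partners of CHD4 in a complex apart from NuRD, CBX3 fell in siCHD4 (by 0.49), siKDM1A (by 0.45), siHDAC2 (by 0.28) and siGATAD2A (by 0.27). CBX5 fell in siGATAD2A and siCHD4, CBX1 rose in siGATAD2A, and ADNP2 rose in siCARM1, siCHD4 and siGATAD2A.

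The genes whose pattern was closest to that of the untargeted paralogues were found by Pearson's r of log2(FPKM + 0.1) over the 12 libraries, as a description. For CHD3 they were CREB3L2 (r = 0.962), SLC44A2 (0.955) and PTPRF (0.946), and for GATAD2B they were SNRPD3 (0.974), E2F1 (0.964) and PEX19 (0.963). The 12 points share groups, library preparation and depth, and the coefficients are the highest of the 12853 genes searched.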

How the data were processed

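Each of the 12 HEK293T libraries came as a table of raw counts per gene. The authors prepared directional libraries from total RNA (NEBNext Ultra Directional kit), sequenced paired ends on an Illumina HiSeq at 1 of 2 companies, with the company of each library not stated, and deposited counts per gene that were not normalized. The submitters' processing notes name CASAVA 1.4, STAR 2.7.10 and hg19, whereas the study's methods describe another aligner and counter. Reverse-strand counts (column 4) were used. The identifiers matched GENCODE 44 mapped to GRCh37 for 58662 genes; 1.75% to 2.61% of counts per library fell on other identifiers, which were left out. The release used for counting was not given in the sources used here, so overlaps and lengths are those of GENCODE 44.

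Coding genes with an FPKM above 0.5 in the mean of at least 1 group were tested with edgeR 4.0.16 (R 4.3.3; TMM, quasi-likelihood, 1 mean per group) and Benjamini-Hochberg adjustment. CPM used TMM-scaled library sizes, and FPKM the unscaled total over matched genes with merged exon lengths. Replicates differed beyond sampling noise (chi-square per degree of freedom 1.77 to 4.96). All members, shared subunits and called genes of the lists could be named. The steps were tested on simulated data. The list of members, the other lists and the tests were chosen with earlier results of these data known. DESeq2 1.42.0 served as an alternative.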

Additional observations from a re-analysis of the deposited data

Results flagged for a closer look

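CDK2AP1 and GATAD2A were picked out because they were called in opposite directions in different knockdowns. CDK2AP1 was higher in siCHD4 than in siGATAD2A by 0.89 ± 0.06 (log2 ± SE) and higher in siCHD4 than in siKDM1A by 0.84 ± 0.06. GATAD2A was higher in siCHD4 than in siGATAD2A, its own knockdown, by 2.83 ± 0.06. These differences come from the fit across all genes, and since they were chosen for their size no p is given. Groups of 2 libraries are too small for the rule on outlying samples.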

How the results depend on the processing

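The alternatives changed the size factors, test, strand, filters, fold minimum, samples in the fit, and each library in turn. No called member value changed sign. Of 2101 single values compared, 2042 kept their side of the threshold, 18 lost a call and 41 gained one (26 of these with no fold minimum). Dropping the fold minimum kept the fit and changed only the threshold. For a comparison with siCTL, most of the libraries left out in turn belonged to neither group compared, so little change could follow. The number that kept their side is therefore partly set by the design. Of the uncalled values 28 changed sign. Dropping the fold minimum raised the number of members called. Against the other 4 knockdowns it went from 1 to 3 (siCARM1), 5 to 8 (siCHD4) and 0 to 5 (siHDAC2). In siGATAD2A it went from 4 to 8 there, and in siKDM1A from 3 to 5. Against siCTL it went from 5 to 6 (siCARM1), 4 to 7 (siCHD4) and 3 to 5 (siHDAC2). In siGATAD2A it went from 5 to 7 against siCTL, and in siKDM1A from 4 to 6. Over all 12853 tested genes the calls rose as well. Against siCTL they went from 3770 to 6000 in siCARM1, 6281 to 8420 in siCHD4 and 2526 to 4555 in siHDAC2. In siGATAD2A they went from 4354 to 6610, and in siKDM1A from 3318 to 5439. Against the other 4 knockdowns they went from 2829 to 6195 in siCARM1, 5829 to 8894 in siCHD4 and 2495 to 5775 in siHDAC2. In siGATAD2A they went from 3462 to 6827 there, and in siKDM1A from 2546 to 5687. With each library left out, members called against siCTL ranged from 4 to 5 in siCARM1 and siCHD4, 2 to 4 in siHDAC2, 4 to 6 in siGATAD2A and 3 to 5 in siKDM1A, and against the other 4 knockdowns from 4 to 5 in siCHD4, 3 to 6 in siGATAD2A and 2 to 3 in siKDM1A. An arm left with 1 library was assumed to vary like the other groups. The labels do not say that equal replicate numbers mark paired samples, and the differences between replicates 1 and 2 correlated at -0.137 to 0.136 over 15 group pairs (median 0.022). The replicate block left the members called at 5, 4, 3, 5 and 4 against siCTL in siCARM1, siCHD4, siHDAC2, siGATAD2A and siKDM1A, and against the other 4 knockdowns at 1, 4, 0, 4 and 3, where MBD2 in siCHD4 was lost. Without regard to strand the siCTL level of MBD3 was 26.1 in place of 31.5 FPKM, and the cause was not tested. Another length for CHD4, the unshared bases of its canonical transcript, was added after seeing the data and put its share of the CHD pair in siCTL at 81.5% in place of 18.2% (29.6% over countable bases). Low counts limit CHD4 and MBD2 most, and for CHD4 most of the canonical transcript is not counted at any depth.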
